A study of Mus musculus with 4 samples.

Results

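The fibroblasts described here are 96 of 26435 cells kept from 4 single-cell libraries of mouse breast tumours. A cell was kept when at least 200 genes were detected and under 20% of its unique molecular identifiers (UMIs) came from mitochondrial genes. It was counted as a fibroblast when it held at least 10 UMIs of Col1a1, Col1a2 and Col3a1 together and at least 1 UMI of Dcn, Lum or Pdgfra. It also had to hold no UMI of the leukocyte gene Ptprc, the epithelial gene Epcam or the endothelial gene Cdh5, and fewer than 5 UMIs of the keratins Krt5 and Krt14 together. These genes chose the cells, so their levels are given as a description only.

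The tumours grew from the MT4788 breast cancer line in wild-type FVB mice and were taken on day 4. Mice of the control library received saline and PBS, those of the phenformin library saline with phenformin, those of the poly I:C library poly I:C with PBS, and those of the combination library both agents. Phenformin blocks complex I, the entry point of the mitochondrial respiratory chain, and poly I:C mimics viral RNA and activates Toll-like receptor 3. Leukocytes were enriched from the dissociated tumours by magnetic beads against CD45 before 10000 cells per condition were loaded, so fibroblasts are cells that passed an enrichment aimed at other cells. Each treatment has 1 library, which gives no replicate check and no test, and the number of tumours behind a library is not given in its labels. All intervals below are 95% intervals that cover counting error only.

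Fibroblasts build the collagen and proteoglycan matrix of connective tissue and remodel it with secreted proteases. In mouse and human tumours they take up states that are commonly described as myofibroblastic, with contractile genes and Lrrc15, as inflammatory, with Il6 and chemokines, and as adventitial, with Pi16, Dpp4 and Ly6 genes. Their chemokines attract neutrophils, monocytes, eosinophils and lymphocytes.

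The fibroblasts held 517 to 47703 UMIs per cell, with a median of 19618 against 7096 for all kept cells, and a median of 2.60% of their UMIs was mitochondrial. The 4 libraries held 59071838 to 77488625 UMIs. Summed over the fibroblasts there were 165176 UMIs in control, 255885 in phenformin, 743094 in poly I:C and 625743 in combination. Libraries shared 94 cell barcodes, and none of them belonged to a fibroblast.

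The poly I:C and combination libraries held more fibroblasts than the other libraries. Control had 10 among 6095 kept cells, which is 0.164% (0.0787 to 0.302), and phenformin had 10 among 5453, which is 0.183% (0.0880 to 0.337). Poly I:C had 39 among 6619, which is 0.589% (0.419 to 0.805), and combination had 37 among 8268, which is 0.448% (0.315 to 0.616). The intervals of poly I:C and combination overlapped and lay above that of control, and the interval of combination overlapped that of phenformin. Tumour epithelial cells, taken as Ptprc-free cells with Epcam and at least 5 UMIs of Krt8 and Krt18, made up 6.32%, 4.13%, 8.38% and 5.43% of the same libraries. Per 100 tumour cells there were 2.60 fibroblasts in control (1.24 to 4.83), 4.44 in phenformin (2.10 to 8.33), 7.03 in poly I:C (4.94 to 9.73) and 8.24 in combination (5.73 to 11.5). Among cells without a Ptprc UMI, fibroblasts were 1.02% (0.491 to 1.87), 1.33% (0.638 to 2.43), 3.06% (2.19 to 4.16) and 2.36% (1.66 to 3.23). In this share the interval of combination overlapped that of control, and the interval of phenformin overlapped those of all other libraries. Both denominators kept control lowest and the poly I:C and combination libraries highest. More fibroblasts in a tumour and a weaker bead enrichment cannot be told apart.

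**Figure D1:**
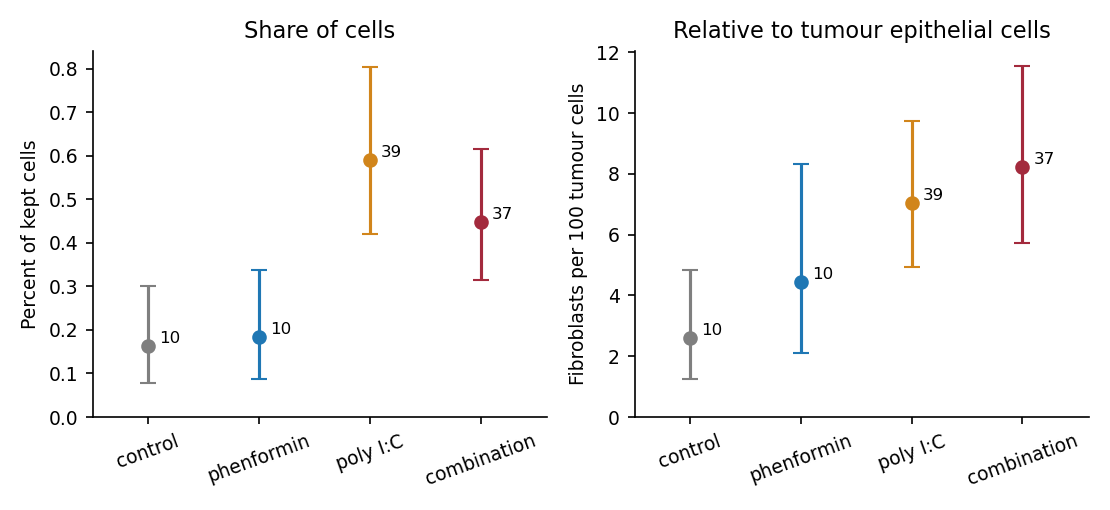
Left, fibroblasts as a percentage of kept cells in each library; right, fibroblasts per 100 tumour epithelial cells. Points carry exact 95% intervals for counting error and the number of fibroblasts; poly I:C (39 cells) and combination (37) lie above control (10) and phenformin (10), and the intervals of phenformin and combination overlap.

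The rule left out 41 of 137 cells that met its collagen and Dcn, Lum or Pdgfra criteria, 30 of them for a Ptprc UMI alone. Members held 10 to 2279 collagen UMIs, with a median of 528. At the edge of the rule 5 members held 10 to 14 collagen UMIs, and 3 cells just outside it held 5 to 9.

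The cells carried a matrix-producing profile that reached well beyond the genes of the rule. Levels are given as CPM, the UMIs of a gene scaled to a total of 1e+06 UMIs summed over fibroblasts; the assay counts tags at the 3' end, so that CPM does not grow with gene length. Col1a2 and Col1a1, the chains of type I collagen, stood at 11320.2 and 10884 CPM, and Col3a1, type III collagen, at 9030.1. The fibroblasts held 68.0%, 67.8% and 68.3% of all UMIs of these genes in the kept cells. Sparc, a collagen-binding matricellular protein that the rule did not use, reached 14110.3 CPM (13937 to 14285) against 180.2 CPM in all other kept cells. It is not particular to fibroblasts: endothelial cells held it at 5794 CPM and tumour cells at 408. The fibroblast level of Sparc was 11182 CPM in control, 15800.1 in phenformin, 15495 in poly I:C and 12548 in combination. Sparc was thus a leading transcript in the fibroblasts of each library.

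Pooled over libraries, 2590 genes reached 50 CPM, of which 312 (12.0%) were at least 10-fold above the other kept cells, and the median fold was 1.05. With the genes of the rule left out, 3 of 4 fibrillar collagens, 6 of 6 small leucine-rich proteoglycans and 13 of 14 elastic fibre genes at 50 CPM were at least 10-fold above. The fibrillar exception was Col11a1, at 119.6 CPM in fibroblasts and 310.5 in tumour cells. No type I interferon, MHC class I or nuclear complex I gene reached 10-fold. Folds against the other kept cells describe the cells that the rule picked and carry no test.

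Several of the most selective genes encode secreted matrix or signalling proteins. C1qtnf3, of the C1q and TNF family, stood at 182 CPM against 0.295 in the other kept cells, a fold of 615 (479 to 797). Wisp2, a matricellular protein of the CCN family, stood at 334 CPM with a fold of 463, and Mfap5, a microfibril component, at 1687 with 319. Rarres2, which encodes the chemoattractant chemerin, reached 3704 CPM with a fold of 324. The collagen cross-linking enzyme Lox was at 883 CPM, the hyaluronan synthase Has1 at 608 and the complement inhibitor Serping1 at 2739. Rarres2 and Serping1 were the highest of these genes in the other kept cells, at 11.4 and 11.7 CPM, and Serping1 was found in 96 of 96 fibroblasts.

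Markers of other cell types were mostly low, with some genes as exceptions. Of the 10 tumour epithelial markers that the rule did not use, Krt18, Cldn4 and Cldn7 were at 0 and Krt8 had 1 UMI, and the 10 summed to 30.2 CPM in fibroblasts and 4947 in tumour cells. The 11 T and NK cell markers summed to 44.7 CPM against 6424 in T cells, with Cd3g and Cd5 at 0. The 8 neutrophil markers summed to 3.91 CPM. Macrophage markers summed to 642 CPM against 35606 in macrophages, of which Apoe gave 501, and ranged from 293 CPM in poly I:C to 1090 in control. Endothelial markers summed to 230.2 CPM, of which Flt1 gave 202. The 10 pericyte and smooth muscle markers summed to 288 CPM and were found in 41 cells; Ndufa4l2 gave 93.9 CPM in 17 cells, and Rgs5 had 162 UMIs, all from 2 cells. Among adipocyte markers Lpl, lipoprotein lipase, stood at 486 CPM in 75 cells, with Adipoq, Cidec, Lep and Retn at 0. Among B cell markers the transcription factor Ebf1 stood at 255 CPM in 82 cells, with Cd79b and Ms4a1 at 0. The actin-bundling gene Fscn1 of the dendritic cell list stood at 103 CPM, with Flt3, Xcr1, Clec9a, Siglech and Ccr7 at 0. The leukocyte proteoglycan Srgn stood at 291 CPM, in a list of 10 leukocyte genes that summed to 364 CPM in fibroblasts and 8465 in T cells. Of the 8 fibroblast markers outside the rule 7 were at least 10-fold above the other cells, and the other one, Thy1, stood at 23.5 CPM.

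Free RNA was gauged in cells thinned to 1500 UMIs, which left out 3 fibroblasts and 101 T cells; the median depth before thinning was 19618 UMIs in fibroblasts and 5417 in T cells. Col1a1 was then found in 98.9% of fibroblasts and 0.181% of T cells, against 100% and 0.780% before thinning. Col1a1 is a gene of the rule, so its contrast describes the choice of cells. Cxcl1 was found in 87.1% and 0.413%, against 95.8% and 1.18%, and Ccl11 in 74.2% and 0.0258%, against 90.6% and 0.176%. The shares of Cxcl1 and Ccl11 in fibroblasts lay far above those in T cells. Cd74, the invariant chain of MHC class II, was found in 20.4% of thinned fibroblasts and 23.4% of thinned T cells, against 69.8% and 51.8% before. H2-Ab1, an MHC class II chain, was found in 15.1% and 14.0%, against 56.2% and 37.5%. Mouse T cells largely lack class II genes, and the thinned shares of both genes are read as background.

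Fibroblasts were 0.363% of the kept cells (0.294 to 0.443) and held a large part of several chemokine transcripts. Of all UMIs in kept cells they held 67.5% of Ccl11, the eosinophil chemokine eotaxin, 55.7% of Cxcl5, 55.1% of Cxcl14 and 52.4% of Cxcl12, the ligand of Cxcr4. They held 28.7% of Ccl2 and 14.5% of Ccl7, which attract monocytes, and 28.0% of Cxcl1, which attracts neutrophils. Their part of Cxcl2 was 3.30% and of the interferon-induced Cxcl9 2.42%. Other kept cells thus carried most of the Cxcl2 and Cxcl9 transcripts.

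The highest pooled chemokine levels were 4354 CPM (4258 to 4452) for Cxcl1, 4271 CPM (4176 to 4368) for Cxcl9 and 4157 CPM (4063 to 4252) for Cxcl2. Ccl2 followed at 3219 CPM, Cxcl14 at 2366, Ccl8 at 1789, Ccl11 at 1555, Ccl7 at 1397, Cxcl12 at 1013 and Cxcl5 at 912. The intervals of Cxcl1 and Cxcl9 overlapped, as did those of Cxcl9 and Cxcl2. The order differed between libraries: Cxcl1 was above Cxcl9 in poly I:C, and Cxcl9 was above Cxcl1 in combination. Il6, the cytokine used to name inflammatory fibroblasts, stood at 546 CPM and was found in 70 of 96 cells.

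The neutrophil chemokine genes Cxcl1, Cxcl2 and Cxcl3 lie in 1 cluster on chromosome 5, and Cxcl3 was called lower in combination while Cxcl1 and Cxcl2 were not, so their promoters are shown. Each line gives the 250 bases before the gene start from RefSeq (build GRCm38.p6, plus strand), at chr5:90890995-90891244 for Cxcl1, chr5:90903649-90903898 for Cxcl2 and chr5:90785851-90786100 for Cxcl3. Capitals mark matches, on either strand, to a pattern known for NF-kappaB, which was GGG, any 2 bases, then TTTCC.
Cxcl1: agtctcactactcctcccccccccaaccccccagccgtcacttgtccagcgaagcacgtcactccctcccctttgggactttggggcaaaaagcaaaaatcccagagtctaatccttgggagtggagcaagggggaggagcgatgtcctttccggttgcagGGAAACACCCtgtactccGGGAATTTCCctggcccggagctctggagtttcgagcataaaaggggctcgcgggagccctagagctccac
Cxcl2: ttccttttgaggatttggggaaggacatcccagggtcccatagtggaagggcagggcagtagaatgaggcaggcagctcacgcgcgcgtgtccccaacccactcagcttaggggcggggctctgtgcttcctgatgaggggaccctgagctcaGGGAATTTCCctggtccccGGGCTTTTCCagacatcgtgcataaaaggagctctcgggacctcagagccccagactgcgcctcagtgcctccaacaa
Cxcl3: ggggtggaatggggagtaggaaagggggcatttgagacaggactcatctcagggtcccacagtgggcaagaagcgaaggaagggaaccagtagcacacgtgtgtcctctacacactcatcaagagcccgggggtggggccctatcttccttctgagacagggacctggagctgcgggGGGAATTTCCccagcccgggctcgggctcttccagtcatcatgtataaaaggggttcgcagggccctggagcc
Cxcl1 held 2 matches, Cxcl2 held 2 and Cxcl3 held 1, while 464 of 32841 promoters of the same length (1.41%) held any. The Saa3 promoter held 0 in the same window. A match describes the letters and says nothing of binding.

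The fibroblasts varied widely among themselves. In the 82 cells with at least 5000 UMIs, the contractile genes Acta2, Tagln, Myl9, Tpm1, Tpm2 and Cnn1 together ranged from 0 to 16130 CPM per cell, with a median of 821. The adventitial genes Pi16, Dpp4, Cd34, Ly6a, Ly6c1, Clec3b and Dpt ranged from 289 to 7418 CPM, with a median of 2950. The inflammatory genes Cxcl1, Cxcl2, Ccl2, Ccl7 and Il6 ranged from 192 to 71833 CPM, with a median of 11362. The cell at 71833 CPM held 329 UMIs of the macrophage markers and 25 collagen UMIs, and the next highest cell was at 52877 CPM. Medians of the inflammatory sum were 3257 CPM in control, 2848 in phenformin, 13239 in poly I:C and 12422 in combination, and the ranges of all 4 libraries overlapped.

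Lrrc15, a membrane protein known from myofibroblasts of tumours, was found in 49 of the 96 cells and went with the contractile genes. Across the 82 cells the Spearman correlation of Lrrc15 with the contractile sum was 0.50, with 0.43 over the 36 poly I:C cells and 0.62 over the 30 combination cells. Among the 20 cells with the highest contractile sum 17 had an Lrrc15 UMI, with 289 UMIs in all, against 6 of the 20 lowest cells, with 23 UMIs. Pi16, an adventitial marker, was found in 1 and 5 of the same cells, and Saa3, an acute-phase protein, in 6 and 17. The correlation of the contractile sum was -0.25 with the adventitial sum and -0.25 with the inflammatory sum. The cells with most Lrrc15, at 48, 32, 28 and 27 UMIs, also held 21, 46, 27 and 18 UMIs of the pericyte and smooth muscle list. The link of Lrrc15 with the contractile genes was not tested without such cells. These correlations are descriptions over cells that share libraries and differ in depth. Col1a1 and Col1a2, which form 1 protein, gave a correlation of 0.90.

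**Figure D2:**
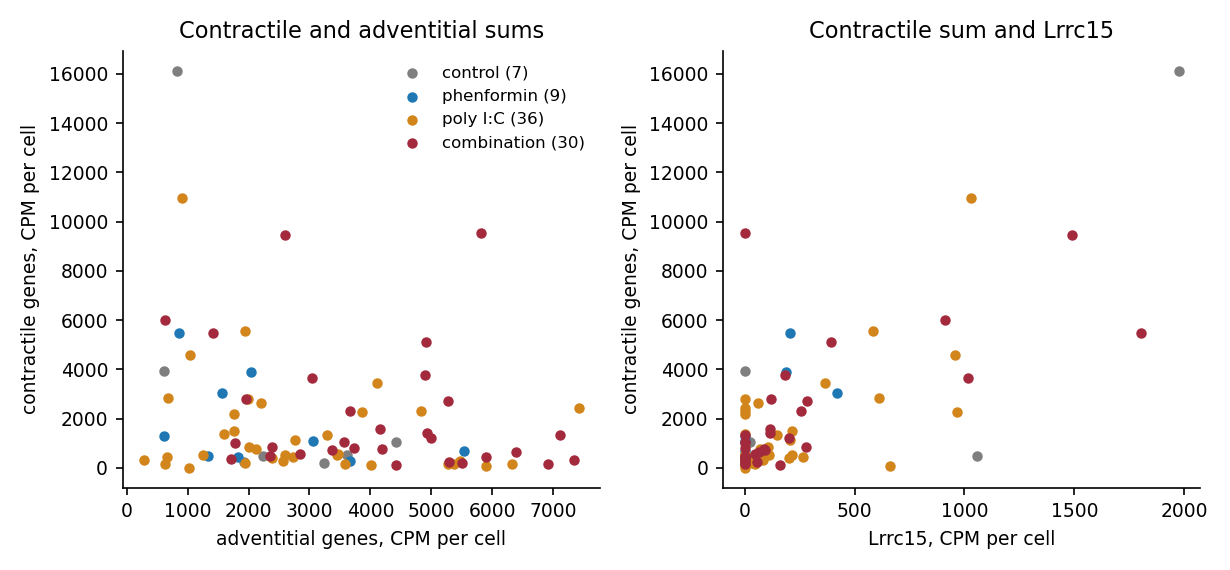
Each point is 1 of 82 fibroblasts with at least 5000 UMIs, coloured by library, with the contractile sum (y, CPM per cell) plotted against the adventitial sum (left, CPM per cell) and against Lrrc15 (right, CPM per cell). Lrrc15 and the contractile sum go together (Spearman correlation 0.50), and the adventitial and contractile sums weakly oppose each other (-0.25).

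The poly I:C and combination libraries alone held at least 20 fibroblasts, so the comparison sets combination over poly I:C, that is, poly I:C with and without phenformin. A gene was compared when the higher library had at least 50 CPM and 30 UMIs. It is called higher or lower when the ratio was at least 2-fold with a counting interval that left out 1. Of 2806 compared genes 88 were higher in combination (3.14%), 53 were lower (1.89%), and 141 were called in either direction (5.02%). Counts of called genes in the lists below are read beside these shares, and in a short list no call or 1 call is near them. The median log2 ratio over all compared genes, with 5 CPM added to each level, was 0.06. TMM scaling shifted that median by -0.13, to -0.07, and gave 56 genes higher and 70 lower. Leaving out cells with a UMI of Rgs5, Cspg4, Kcnj8, Abcc9 or Myh11, genes of pericytes and muscle, gave 56 higher and 62 lower. Below, cells that hold a pericyte or muscle gene are those with a UMI of these genes. Other genes of the pericyte and smooth muscle list did not count for this. After the cell with most UMIs of a gene was left out of each library, 122 of the 141 calls stayed at least 2-fold, and none turned. By the full limits, 55 of the 88 higher and 38 of the 53 lower genes were then called again. Without cells that hold a pericyte or muscle gene 43 and 43 of them were called again, and with equal weight per cell 54 and 34. In 9 calls 1 cell held over 50% of the UMIs in the higher library.

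**Figure D3:**
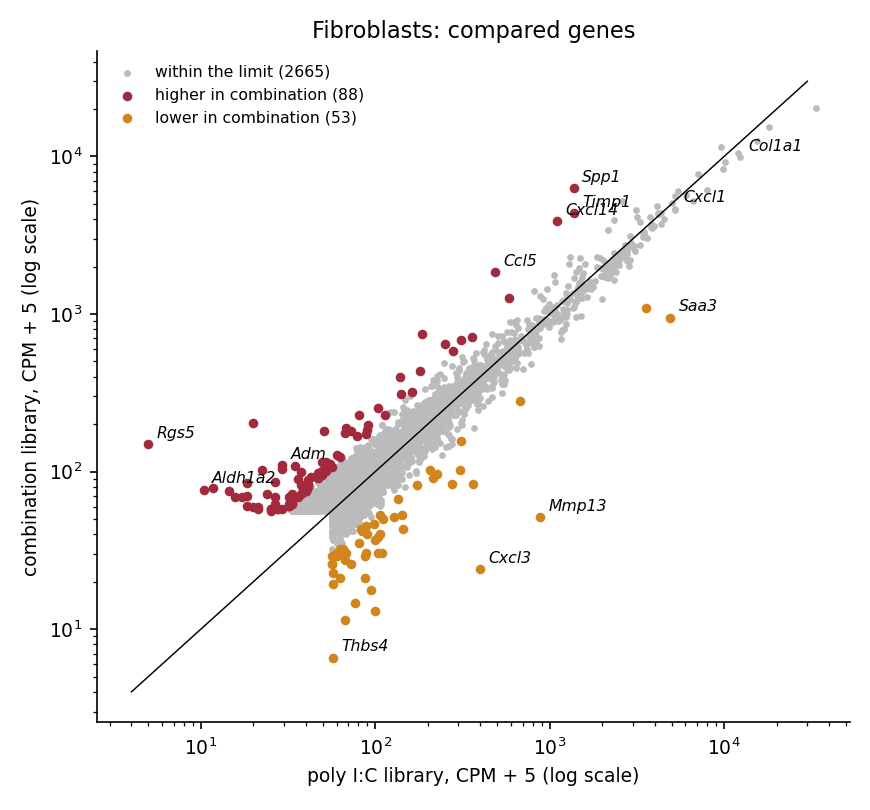
Fibroblast levels of 2806 compared genes in the poly I:C library (x, CPM + 5, log scale) and the combination library (y, CPM + 5, log scale); the line marks equal levels. Dark red points are the 88 genes called higher in combination and orange points the 53 called lower; Col1a1 and Cxcl1 lie near the line, and Cxcl3 and Mmp13 far below it.

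Chemokines differed in direction. Of 14 compared members of the list 3 were higher in combination and 1 was lower, with a median log2 ratio of 0.18 against 0.06 over all compared genes. Cxcl3, a ligand of the neutrophil receptor Cxcr2, stood at 12.1 CPM in control, 0 in phenformin, 392 in poly I:C and 19.2 in combination. Its ratio of combination over poly I:C was 0.0490 (0.0250 to 0.0869), and it was found in 5 of 37 combination and 16 of 39 poly I:C cells. Cxcl3 was the only chemokine of the list called lower in combination. Cxcl1 stood at 2833 CPM in control, 2005 in phenformin, 5246 in poly I:C and 4658 in combination, with a ratio of 0.888 (0.846 to 0.932). Cxcl2 stood at 2367, 1211, 5197 and 4598 CPM in the same order, with a ratio of 0.885 (0.843 to 0.929). Neither was called, unlike Cxcl3. The 3 genes are paralogs of similar sequence, and how the counting treated reads that match more than 1 of them is not stated.

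Cxcl14, a chemokine for myeloid cells and NK cells, was at 2016 CPM in control, 2536 in phenformin, 1103 in poly I:C and 3887 in combination. Its ratio was 3.52 (3.25 to 3.82), and it was found in 30 of 37 and 32 of 39 cells. The number of cells with Cxcl14 was similar in both libraries. Ccl5, which attracts T cells, was at 12.1, 156, 482 and 1841 CPM in the same order, with a ratio of 3.82 (3.39 to 4.31). T cells held Ccl5 at 2872 CPM, and the T and NK list in fibroblasts summed to 28.3 CPM in poly I:C and 57.5 in combination. In thinned cells Ccl5 was found in 60.8% of T cells, 50.1% of macrophages and 37.6% of fibroblasts. The macrophage markers in fibroblasts summed to 293 CPM in poly I:C and 944 in combination. Ccl5 was called in all 16 alternatives. These include one with fewer than 3 UMIs per cell of Tyrobp, Fcer1g, Cd52, Coro1a, Laptm5 and Cd3e together. These calls do not measure the part of T cell or macrophage RNA in the ratio of Ccl5, which was not tested.

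Cxcl10 and Cxcl9, both induced by interferons, lay at the 2-fold limit. Cxcl10 was at 224 CPM in control, 1692 in phenformin, 353 in poly I:C and 713 in combination. Its ratio was 2.02 (1.73 to 2.36), and it was called in 11 of 16 alternatives, which leave out TMM scaling. In poly I:C 1 cell held 61.8% of that library's Cxcl10 UMIs, and the ratio was 4.16 without the leading cells. Cxcl9 was at 3191, 7574, 2597 and 5194 CPM in the same order, with a ratio just under 2 that was not called. Ccl2, Ccl7, Ccl11, Cxcl12 and Cxcl5 had ratios of 1.16, 0.838, 1.30, 1.15 and 1.01. These abundant chemokines differed by less than 2-fold between the libraries.

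**Figure D4:**
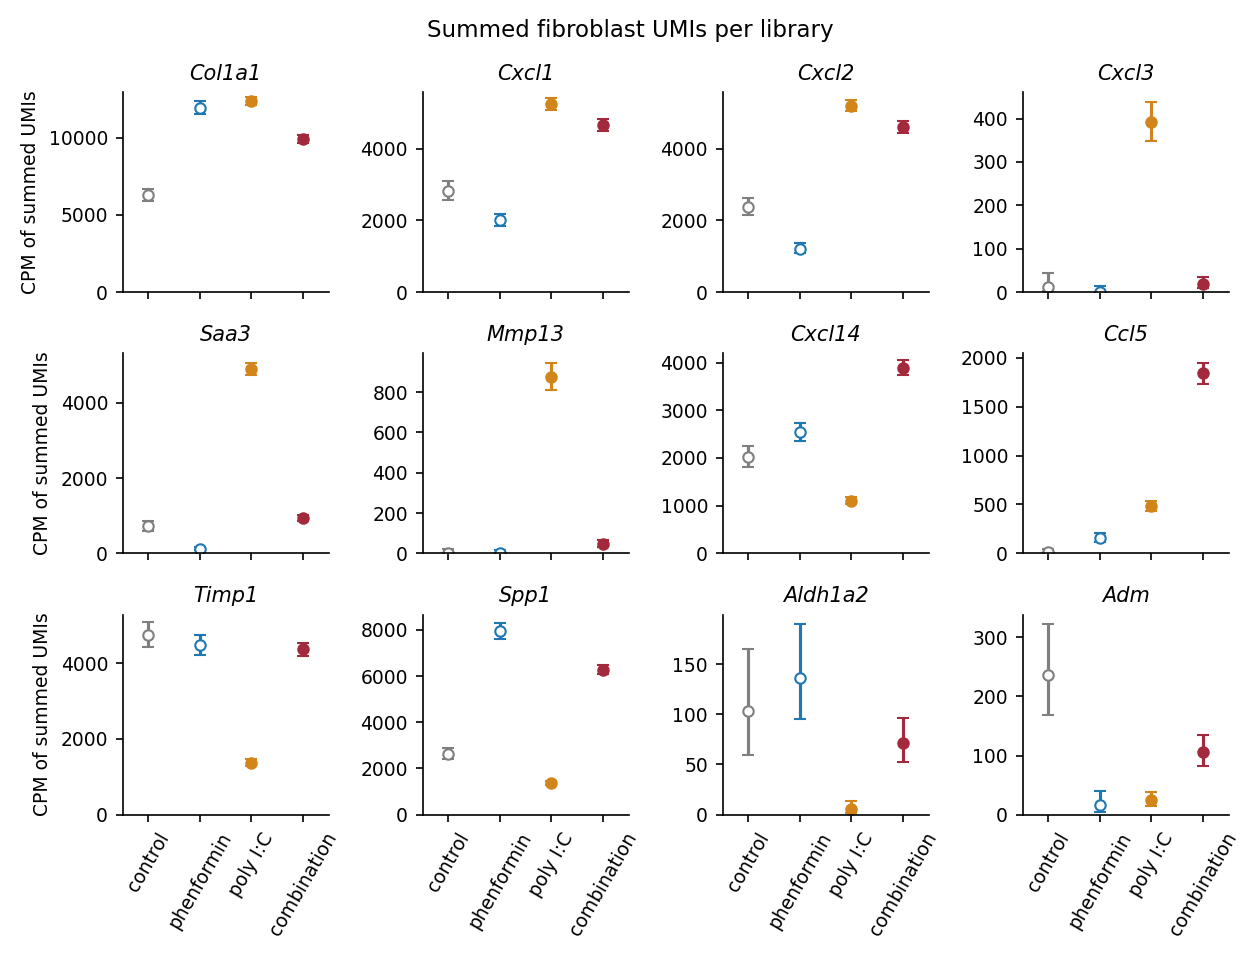
CPM of 12 genes over the summed fibroblast UMIs of each library, each panel with its own axis from 0 and exact Poisson 95% intervals. Filled points are libraries with at least 20 fibroblasts and open points the libraries with 10; between the filled points Cxcl3, Saa3 and Mmp13 are higher in poly I:C, and Timp1, Cxcl14 and Spp1 are higher in combination.

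Of 22 compared genes of the inflammatory fibroblast list 2 were higher and 2 lower, with a median log2 ratio of 0.03. Saa3, an acute-phase serum amyloid protein, was at 726 CPM in control, 113 in phenformin, 4907 in poly I:C and 944 in combination. Its ratio was 0.192 (0.176 to 0.210), and 8 poly I:C cells but 2 combination cells held 100 Saa3 UMIs or more. In control 1 cell held 112 of the 120 Saa3 UMIs. Csf3, which encodes the neutrophil growth factor G-CSF, was at 418, 0, 305 and 152 CPM in the same order, with a ratio of 0.497 (0.387 to 0.634) that was called in 10 of the 15 alternatives in which it was compared. Il11, a cytokine of the Il6 family, was at 42.4, 35.2, 74.0 and 163 CPM in the same order, with a ratio of 2.20 (1.57 to 3.12). Il6 itself, with a ratio of 1.29, was not called.

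Of 18 compared genes of matrix proteases and their inhibitors 3 were higher and 3 lower in combination, with a median log2 ratio of -0.22, which was 0.06 without cells that hold a pericyte or muscle gene. The 3 lower genes were metalloproteases: Mmp13, a collagenase, Mmp11, stromelysin-3, and Mmp9, a gelatinase. Mmp13 was at 0 CPM in control, 0 in phenformin, 876 in poly I:C and 46.3 in combination, with a ratio of 0.0529 (0.0351 to 0.0767). It was found in 10 poly I:C and 3 combination cells, and a count of 0 allows up to 3 UMIs in control and in phenformin. In poly I:C 1 cell held 74.7% of the Mmp13 UMIs. Mmp11 had a ratio of 0.134 (0.0472 to 0.312) and Mmp9 of 0.195 (0.0889 to 0.383).

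The 3 higher genes were inhibitors: Timp1 and Timp3, which block metalloproteases, and Serpine2, which blocks serine proteases. Timp1 was at 4746 CPM in control, 4467 in phenformin, 1373 in poly I:C and 4359.6 in combination, with a ratio of 3.18 (2.95 to 3.42), and was found in 35 of 37 and 38 of 39 cells. Most cells of both libraries thus carried Timp1. Timp3 had a ratio of 2.58 (2.16 to 3.08) and Serpine2 of 2.01 (1.59 to 2.55); Serpine2 was called in 8 of the 15 alternatives in which it was compared.

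All 8 poly I:C cells with at least 5 Mmp13 UMIs held Lrrc15, against 13 of the other 31, at median depths of 19142.5 and 20248 UMIs. Of those 8 cells 3 held Cxcl3, against 13 of the other 31. Of the 11 poly I:C cells with at least 5 Cxcl3 UMIs 1 held Mmp13, against 9 of the other 28, and 10 held Saa3, against 17 of the other 28. The cells were picked by these genes, and the counts are a description.

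Of 7 compared fibrillar collagens none was called, with a median log2 ratio of -0.07. Col1a1 was at 6278 CPM in control, 11919 in phenformin, 12360.5 in poly I:C and 9924 in combination, with a ratio of 0.803 (0.777 to 0.829). The sum of Col1a1, Col1a2 and Col3a1 had a median of 32572 CPM per cell in poly I:C and 21913 in combination. Of 9 compared basement membrane and network collagens 1 was lower, Col7a1, the anchoring fibril collagen, with a ratio of 0.491 (0.292 to 0.803). Of 24 compared genes of collagen processing 2 were higher, the lysyl hydroxylases Plod2, with a ratio of 2.52 (1.90 to 3.38), and Plod3, with 2.04 (1.38 to 3.05). Among 8 small leucine-rich proteoglycans Fmod, fibromodulin, was higher with a ratio of 2.95 (2.15 to 4.10) and Aspn, asporin, was lower with 0.323 (0.240 to 0.431). Fmod was at 139 CPM in control, 301 in phenformin, 75.4 in poly I:C and 222 in combination, and Aspn was at 121, 164, 301 and 97.5 CPM in the same order. Both proteins bind collagen, and their ratios went in opposite directions. Of 14 compared elastic fibre genes 1, Ltbp2, a microfibril-associated protein, was higher, with a ratio of 2.43 (1.96 to 3.02).

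Of 21 compared genes of glycolysis and hypoxia 3 were higher and none lower. The median log2 ratio was 0.65 against 0.06 over all compared genes, and 18 of the 21 lay above 0. The same list gave medians of 0.04 in tumour cells, -0.06 in T cells, -0.12 in macrophages and -0.25 in endothelial cells. The 10 pericyte and smooth muscle markers summed to 68.6 CPM in poly I:C and 457 in combination, and were found in 11 and 19 cells. Without cells that hold Rgs5, Cspg4, Kcnj8, Abcc9 or Myh11 the median of the glycolysis and hypoxia list was 0.52. That setting kept 37 poly I:C and 31 combination cells, so part of the cells with other markers of the pericyte and smooth muscle list stayed in. Adm, which encodes the vasodilator peptide adrenomedullin, was at 236 CPM in control, 15.6 in phenformin, 24.2 in poly I:C and 105 in combination, with a ratio of 4.35 (2.55 to 7.79). It was found in 22 of 37 combination and 6 of 39 poly I:C cells, and in control 1 cell held 32 of the 39 Adm UMIs. Slc16a3, the lactate exporter MCT4, had a ratio of 3.51 (2.13 to 5.98) and Bnip3, a mitophagy receptor, of 2.22 (1.41 to 3.56). Ldha, lactate dehydrogenase A, had a ratio of 1.58 (1.33 to 1.88) and Vegfa of 1.63 (1.22 to 2.19), neither called. With each cell given equal weight the list median was 0.35, Slc16a3 was at 1.815 and Bnip3 at 0.932, and neither was called. Per cell the glycolysis and hypoxia list summed to a median of 3903 CPM in poly I:C and 4524 in combination, with ranges of 2453 to 17565 and 1730.1 to 21445. The poly I:C cells at 17565 and 17472 CPM held 18 and 14 UMIs of the pericyte and smooth muscle list. The combination cells at 21445 and 20314 CPM held 27 and 46, and the one with most such UMIs, 136, was at 6335 CPM. The part of such cells in the ratios was not tested beyond the setting above.

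Complex I, the target of phenformin, showed no called gene among its 35 compared nuclear-encoded subunits, with a median log2 ratio of -0.03. Over all compared genes 5.02% were called, so no call in a list of this size is near that share. Of its 6 compared mitochondrial-encoded subunits none was called, with a median of 0.13. Of 9 compared genes of the integrated stress response 1 was higher, Ddit3, the transcription factor CHOP, with a ratio of 2.15 (1.42 to 3.31). Of 11 heat shock genes 1 was higher, Hspb1, with 2.94 (2.32 to 3.75). None of 17 compared immediate-early genes, which dissociation can induce, was called.

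Of 17 compared type I interferon genes 1 was higher and 1 lower, with a median log2 ratio of 0.53. The median was 0.22 in cells with fewer than 3 leukocyte UMIs and 0.25 with TMM scaling; the list of 10 leukocyte genes summed to 238 CPM in poly I:C and 425 in combination. Rsad2, viperin, was at 0 CPM in control, 524 in phenformin, 32.3 in poly I:C and 94.3 in combination, with a ratio of 2.92 (1.79 to 4.91), and Oasl1, an OAS-like protein, had one of 0.445 (0.229 to 0.824). Isg15, a ubiquitin-like interferon product, was at 254, 891, 628 and 689 CPM in the same order, with a ratio of 1.10 (0.959 to 1.25). Ifitm3, a membrane protein that blocks virus entry, had a ratio of 1.46 (1.38 to 1.54). Of the 17 genes 15 had a log2 ratio above 0. Of 17 compared MHC class I genes none was called, with a median of 0.11. Across cells Cxcl9 and the summed interferon genes gave a Spearman correlation of 0.62, with 0.79 in poly I:C and 0.38 in combination.

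**Figure D5:**
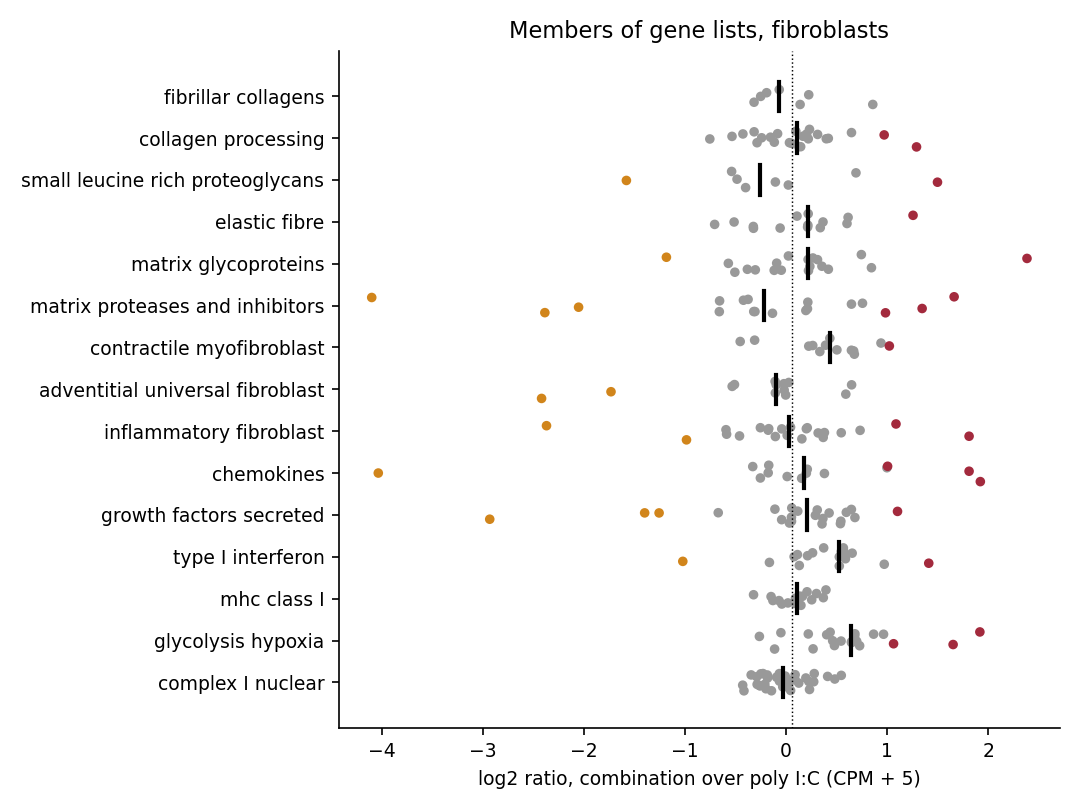
Each point is a compared gene of a list, placed at its log2 ratio of combination over poly I:C (5 CPM added); dark red points are called higher, orange points called lower, and black bars mark list medians. The dotted line is the median of all compared genes (0.06); glycolysis and hypoxia genes have a median of 0.65 and nuclear complex I genes -0.03.

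Of 13 compared contractile genes 1 was higher and none lower, with a median log2 ratio of 0.43. The called gene was Cnn2, calponin 2, with a ratio of 2.09 (1.52 to 2.90). Acta2, smooth muscle actin, was at 527 CPM in control, 735 in phenformin, 460.2 in poly I:C and 738 in combination, with a ratio of 1.60 (1.39 to 1.85), and Lrrc15 had one of 1.17 (0.934 to 1.47). Neither was called. Of 13 compared adventitial genes 2 were lower and none higher: Clec3b, tetranectin, with 0.142 (0.0588 to 0.296) and the scavenging chemokine receptor Ackr3 with 0.288 (0.206 to 0.395). The sum of 7 adventitial genes named above went the other way, with a median of 2478 CPM per cell in poly I:C and 4179 in combination. Of 22 compared secreted growth factors and antagonists the Wnt antagonist Sfrp1 was higher, with 2.16 (1.92 to 2.43), and 3 were lower. These were the BMP antagonist Grem1, the heparin-binding factor Ptn and the Wnt modulator Sfrp2, with ratios of 0.0848, 0.348 and 0.414. None of 19 compared growth factor and cytokine receptors and none of 9 complement genes was called, against 5.02% of all compared genes.

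Aldh1a2, which makes retinoic acid, was at 103 CPM in control, 137 in phenformin, 5.38 in poly I:C and 71.9 in combination, with a ratio of 13.4 (4.87 to 51.1). It was found in 12 of 37 combination and 2 of 39 poly I:C cells. Spp1, osteopontin, was at 2639.6, 7961, 1366 and 6276 CPM in the same order, with a ratio of 4.59 (4.29 to 4.93), and 10 combination and 3 poly I:C cells held 100 Spp1 UMIs or more. In control 1 cell held 418 of the 436 Spp1 UMIs, and the level there was 143 CPM without it. Tumour cells held Spp1 at 2460 CPM. In thinned cells Spp1 was found in 72.1% of tumour cells, 49.5% of fibroblasts and 8.06% of T cells. The part of RNA from other cells in the ratio of Spp1 was not tested.

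Among the other high ratios some rested on few cells. Rgs5 had 90 UMIs in combination and 0 in poly I:C, all from 1 cell. Tgfbi, a matrix protein, had a ratio of 7.46 (3.34 to 19.6), with 77.3% of its combination UMIs in 1 cell and a ratio of 1.98 without the leading cells. Tnn, tenascin-N, was found in 3 combination and 5 poly I:C cells, with a ratio of 5.57. Nos2, inducible nitric oxide synthase, was found in 5 and 3 cells, with a ratio of 4.87, and Mylk, myosin light chain kinase, in 16 and 7, with 5.94. Smc2 and Tyms, genes of dividing cells, had ratios of 10.9 and 5.94. Of 4 compared proliferation genes 3 were higher, and 3 combination cells but 1 poly I:C cell held 3 or more UMIs of Mki67 and Top2a. Apoe, the leading macrophage marker, had a ratio of 4.10 (3.38 to 5.01), and 1.38 without the leading cells.

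Among the lowest ratios, Thbs4, thrombospondin 4, had 39 UMIs in poly I:C and 1 in combination, a ratio of 0.0304 (0.000752 to 0.180). C1qtnf3 was at 12.1 CPM in control, 27.4 in phenformin, 359 in poly I:C and 78.3 in combination, with a ratio of 0.218 (0.157 to 0.296). Osr2, a zinc finger transcription factor, had a ratio of 0.103 (0.0270 to 0.283) and was found in 18 poly I:C and 4 combination cells. Cd74 and H2-Ab1 were also called lower, at 0.414 and 0.274, but their shares of cells were at the background given above.

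The 10 cells each of control and phenformin allow values but no comparison. Mgp, matrix Gla protein, was at 1362 CPM in control, 13154 in phenformin, 1296 in poly I:C and 2285 in combination. Igfbp2, an IGF-binding protein, was at 230.1, 2059.5, 276 and 574 CPM in the same order. Both genes encode secreted proteins. Ifit3, an interferon-induced gene, was at 0, 269.7, 12.1 and 27.2 CPM in the same order. Pi16 was at 133, 39.1, 26.9 and 22.4 CPM in the same order, from 2, 2, 3 and 6 cells. The phenformin level of Mgp rested on few cells: those with most held 1323, 665 and 606 UMIs, and the next held 231.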

How the data were processed

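The members and gene lists were chosen with earlier results of these data known. The deposited values are raw UMI counts, 1 per gene and barcode; Cell Ranger 3.1.0 and builds mm10 and GRCm38 appear in the submitters' processing notes. The annotation and barcode filter used by the authors are not stated. The 27998 features were summed to 27933 symbols. Fibroblasts were taken by the marker rule, without clustering. No doublet caller was run. The rule's exclusions and an alternative that limits leukocyte UMIs stand in for one. Leukocyte UMIs in that alternative are those of Tyrobp, Fcer1g, Cd52, Coro1a, Laptm5 and Cd3e. Depth was 165176 to 743094 UMIs summed over the fibroblasts of a library.

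UMIs were summed per library and scaled to CPM with exact Poisson intervals. Shares have Clopper-Pearson intervals, and ratios the exact interval conditional on the total. The ratio step was checked on simulated Poisson counts without variation between cells, so the check does not cover such variation. No test was made, since each treatment has 1 library. A count of 0 was given a limit of 3 counts, and list medians used 5 CPM as a pseudocount. Genes were named by rule: the genes that chose the cells, the 20 highest by CPM and by fold, the 10 highest and 10 lowest called ratios, up to 4 members per list by size of ratio, and members at 50 CPM of the collagen, proteoglycan, chemokine, contractile and inflammatory lists. An item that this rule names is not reported here. Others given with values, such as Mgp, Ifit3, Pi16, Isg15 and Apoe, were chosen after their values were seen. Tools were Python 3.11.15, numpy 2.4.6, scipy 1.17.1, pandas 2.3.3, R 4.3.3 and edgeR 4.0.16, the last for TMM factors only. Promoters from RefSeq matched by symbol for 7 of 7 genes. The RefSeq promoters held no entry for Col1a1 or Plod2, which are not among these genes. Alternatives covered the cell rule, scaling, gene filters and single cells; the leading cell per gene and a minimum of 5000 UMIs per cell were added after seeing the data.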

Additional observations from a re-analysis of the deposited data

How the results depend on the processing

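The share of fibroblasts stayed within its interval in all 4 libraries under each alternative cell rule. Of the counts of called genes 23 stayed within 1.5 times and 9 moved. The number higher and lower in combination was 15 and 10 in cells thinned to 1500 UMIs, 17 and 12 with at least 200 CPM, and 349 and 153 with no minimum CPM and at least 10 UMIs; these settings change how many genes are compared (319, 786 and 6411 in place of 2806). It was 56 and 70 with TMM scaling, 56 and 62 without cells that hold a pericyte or muscle gene, and 126 and 101 with equal weight per cell, and for these the cause was not tested. Among called genes that an alternative still compared, 1 turned, Bnip3, at 0.932 with equal weight per cell. In thinned cells, where too few UMIs were left to compare them, Bnip3 was at 0.362 and Oasl1 at 3.26, against 2.22 and 0.445.

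The median log2 ratio of all compared genes was 0.0158 with fewer than 3 leukocyte UMIs per cell, -0.0239 without pericyte or muscle genes, -0.0714 with TMM, 0.00893 with equal weight per cell, -0.0453 in thinned cells, 0.0299 without mitochondrial and ribosomal protein genes, -0.0291 with at least 200 CPM, 0.0834 with no minimum CPM and 0.0289 without the leading cell of each gene. In thinned cells medians were -0.279 for basement membrane and network collagens, -0.354 for collagen processing, 0.857 for type I interferon, 0.264 for MHC class I and 0.122 for immediate-early genes. Without pericyte or muscle genes they were 0.0319 for adventitial, -0.107 for interferon gamma, -0.0709 for MHC class I and -0.1496 for stress response genes. With fewer than 3 leukocyte UMIs they were 0.0701 for interferon gamma and -0.317 for immediate-early genes. With equal weight per cell they were 0.347 for glycolysis and hypoxia and 0.153 for immediate-early genes, and receptors with at least 200 CPM gave -0.203. For these medians the cause was not tested. The other 417 medians lay within an order-statistic interval over the genes of their list, which is wide for short lists: type I interferon was still counted as within it at 0.2175 and 0.2505. Of the ratios of named genes 794 lay within their counting interval and 129 outside it.

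No paired analysis was possible because each treatment has 1 library, so the treatment cannot be told apart from the library. The 10 fibroblasts each of control and phenformin are too few for ratios.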
